A study of Mus musculus with 18 samples.

Results

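Transcripts of 10 transcription factors that specify or maintain neuron classes of the spinal dorsal horn (DHSC) were followed in RNA-Seq counts from 18 mouse samples. They were taken from the 55573 Ensembl genes of the count table by their symbols: *Tlx3*, *Lmx1b*, *Prrxl1* and *Ebf2*, associated with excitatory neurons, *Pax2*, *Lhx1* and *Gbx1*, associated with inhibitory neurons, and *Lbx1*, *Rorb* and *Maf*, found in both lineages. All 10 had enough counts to be tested in every comparison. The samples were ipsilateral DHSC from adult C57BL/6J mice, dissected from lumbar segments 2 h after a subcutaneous injection of 2% formalin, a chemical irritant, into a hind paw. There were 6 males, 6 females in proestrus with a short interphase of pain behavior (F1/proestrus) and 6 females in metestrus with a long interphase (F2/metestrus), the estrus stage being read from vaginal smears after the behavioral test. Every mouse received formalin, so a level here cannot be compared with that of an uninjected animal. The comparisons ask whether the DHSC transcriptome differed between sexes and between the female groups.

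Neurons of the dorsal horn arise from progenitors of the dorsal neural tube, in which combinations of homeodomain factors choose between a glutamatergic and a GABAergic or glycinergic fate. *Tlx3* promotes the glutamatergic fate and opposes the inhibitory program that depends on *Lbx1* and *Pax2*. Several of these factors stay on in the adult dorsal horn, where they mark neurons of particular laminae, and a few are also used by sensory neurons of the dorsal root ganglia, whose axons end in the dorsal horn.

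Promoter sequences are printed for members that correlate most strongly with another member in the samples. They show DNA just upstream of a RefSeq transcript start. They come from RefSeq windows that reach 250 bases upstream of a transcript start on GRCm38.p6, matched by symbol for 6 of the 10 members, and only bases outside the exons annotated by GENCODE vM21 are shown, read 5′ to 3′ on the gene's strand. Capitals mark TAAT or its reverse complement ATTA, the core that many homeodomain proteins bind. The windows are chr11:33203590-33203838 (minus strand) for *Tlx3*, chr14:32599733-32599866 (plus strand) for *Prrxl1*, chr19:44755502-44755751 (plus strand) for *Pax2*, and chr11:84525536-84525784 (minus strand) for *Lhx1*. The *Prrxl1* window lies inside the gene as GENCODE annotates it (chr14:32599407-32649246), so it is not upstream of the first annotated start.
Tlx3: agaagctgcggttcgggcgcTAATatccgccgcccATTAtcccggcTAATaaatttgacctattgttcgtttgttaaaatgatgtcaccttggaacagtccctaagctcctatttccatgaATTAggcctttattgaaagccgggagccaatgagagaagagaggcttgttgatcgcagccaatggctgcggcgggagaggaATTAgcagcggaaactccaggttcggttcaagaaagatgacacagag
Prrxl1: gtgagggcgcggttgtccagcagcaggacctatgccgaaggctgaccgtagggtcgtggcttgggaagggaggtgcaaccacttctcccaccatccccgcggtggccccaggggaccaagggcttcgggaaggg
Pax2: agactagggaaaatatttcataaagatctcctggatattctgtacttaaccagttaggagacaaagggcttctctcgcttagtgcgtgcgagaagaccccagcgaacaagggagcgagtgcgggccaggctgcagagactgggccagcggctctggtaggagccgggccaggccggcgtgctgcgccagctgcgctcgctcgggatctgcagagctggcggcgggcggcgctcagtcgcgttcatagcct
Lhx1: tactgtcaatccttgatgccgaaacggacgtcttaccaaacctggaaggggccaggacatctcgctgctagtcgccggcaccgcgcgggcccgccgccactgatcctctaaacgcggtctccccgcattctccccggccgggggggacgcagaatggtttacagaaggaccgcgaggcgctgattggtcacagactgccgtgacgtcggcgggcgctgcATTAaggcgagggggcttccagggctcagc
The *Tlx3* window holds 5 such matches, the *Lhx1* window 1, and those of *Prrxl1* and *Pax2* hold 0. *Pax2* has another window further upstream, chr19:44746351-44746600, which is not printed and holds 1. On either strand, TAAT occurs in 54.9% of the 32851 mouse windows of this kind, so a match is common. *Tlx3* and *Prrxl1* were the most strongly correlated pair of members across samples, and their windows differ in this respect. The *Prrxl1* window, however, is intragenic and shows only 134 bases. The tetranucleotide is too short to mark a binding site by itself. For *Lbx1*, *Maf*, *Gbx1* and *Ebf2* no window was matched.

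Between 73590509 and 125724156 reads per sample fell on genes, and 3 counts corresponded to 0.0244 to 0.0399 CPM (counts scaled to a common library total after TMM normalization). Member counts ranged from 147 for *Pax2* to 6367 for *Prrxl1*, far above that floor in every sample. *Slc17a6*, the vesicular glutamate transporter of spinal excitatory neurons, lay between 236 and 279 CPM, and *Slc32a1*, the vesicular transporter of inhibitory neurons, between 40.3 and 55.2 CPM, so both neuron classes were sampled in all 18 libraries. One library stood apart. F1/proestrus 5 had 125 CPM of the nociceptor sodium channel gene *Scn10a* and 133 CPM of the sensory neuron gene *Avil*, against at most 0.153 and 0.908 CPM in the other samples. The summed CPM of 8 sensory ganglion neuron markers was 512 there and 3.27 to 6.13 in the remaining 5 F1/proestrus samples, against 3.62 to 5.21 in F2/metestrus and 3.97 to 4.53 in males. The library numbers in the table header fall into a first series (replicates 1 to 3 of each group) and a second series (replicates 4 to 6), used here as a batch.

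Levels of the members were compared with each other as CPM per kilobase of annotated exon over the 18 samples. *Prrxl1*, a paired-type homeodomain gene of excitatory dorsal horn neurons and of nociceptors (chr14:32599407-32649246), was highest at 8.42 ± 1.68 CPM per kilobase (SD, n = 18). It was followed by *Ebf2*, a helix-loop-helix factor of differentiating neurons (chr14:67233292-67430918), at 4.78 ± 0.378 CPM per kilobase. Next came *Rorb*, a nuclear receptor listed here under both lineages (chr19:18930605-19111196), at 4.06 ± 0.422 CPM per kilobase. The homeodomain genes *Lbx1* (chr19:45232684-45235812) and *Tlx3* (chr11:33200752-33203589) had 3.37 ± 0.739 and 2.76 ± 0.758 CPM per kilobase. *Lmx1b*, a LIM-homeodomain gene that maintains excitatory neurons (chr2:33560965-33640511), had 2.24 ± 0.290, and *Gbx1*, a homeodomain gene of inhibitory interneurons (chr5:24502757-24527202), had 2.05 ± 0.386 CPM per kilobase. The lowest levels were those of *Lhx1*, a LIM-homeodomain gene of the inhibitory lineage (chr11:84518284-84525535), at 1.66 ± 0.165, *Maf*, a leucine zipper gene of deeper laminae (chr8:115682942-115707794), at 1.10 ± 0.209, and *Pax2*, a paired-box gene of the inhibitory lineage (chr19:44756045-44837871), at 0.430 ± 0.0730 CPM per kilobase. All coordinates are GRCm38, and the 3 steps at which mean ± SD of neighbours did not overlap were *Prrxl1* over *Ebf2* (1.76-fold), *Lhx1* over *Maf* (1.51-fold) and *Maf* over *Pax2* (2.55-fold). The exon lengths used for *Ebf2* and *Maf* include bases shared with antisense genes: *Gm10860* overlaps 6.12% of the *Ebf2* exon bases and *Gm15655* 5.34% of those of *Maf*. The sources used here do not state whether counting used the strand. The methods do not say how reads on shared bases were counted, so the direction of any effect on these levels is not known.

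**Figure D1:**
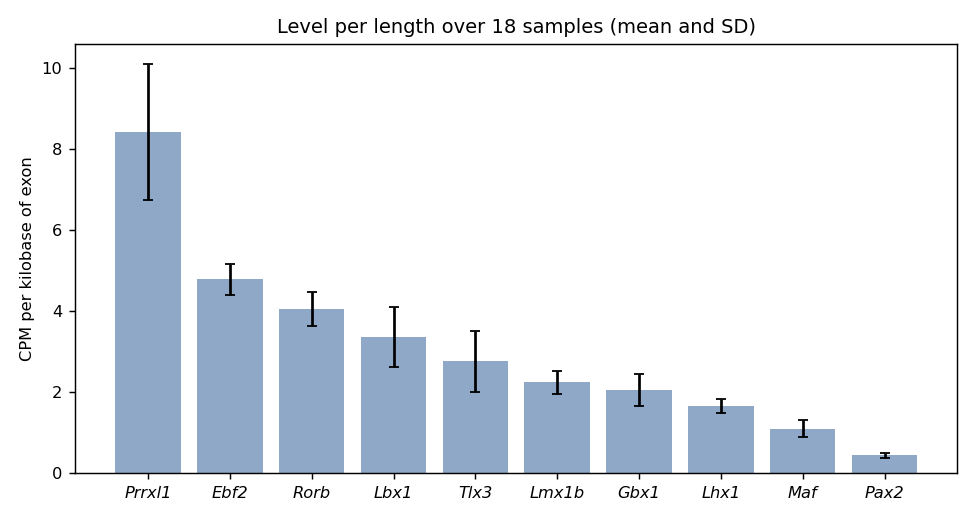
Level of each factor, in CPM per kilobase of exon, as the mean (bar) and SD (line) over the 18 samples. *Prrxl1* stands highest at 8.42 and *Pax2* lowest at 0.430.

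The members differed widely in how much they varied between samples. Over the 18 samples *Tlx3* varied most, with a coefficient of variation of 27.5%, followed by *Lbx1* at 22.0%, *Prrxl1* at 19.9%, *Maf* at 19.0%, *Gbx1* at 18.8% and *Pax2* at 16.96%. *Lmx1b* (13.0%), *Rorb* (10.4%), *Lhx1* (9.97%) and *Ebf2* (7.91%) varied less, and the median of 17763 genes with a mean of at least 1 CPM was 11.02%. Without F1/proestrus 5 the order changed: *Lbx1* then varied most, at 22.3%, ahead of *Maf* at 19.6%, *Tlx3* at 19.5%, *Gbx1* at 19.3%, *Pax2* at 16.5% and *Prrxl1* at 14.4%. Among transmitter genes over the 18 samples, *Slc17a6* varied by 5.0% and *Slc32a1* by 7.64%, whereas *Slc6a5*, the glycine transporter, varied by 19.1%. In bulk tissue, fewer cells of a type and less RNA per cell cannot be told apart.

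Between sexes, 0 of the 10 factors passed the quasi-likelihood test of edgeR at an FDR of 5%, against 0.197% of the 24862 genes tested (49 genes, with 2416 at an unadjusted p under 0.05). DESeq2 also called 0 of the 10. The estimate was higher in males for 9 of 10 factors and lower for *Rorb*, but the sexes overlapped for each of them. Unadjusted p fell under 0.05 for *Lmx1b* and *Lbx1*.

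In the excitatory lineage, *Lmx1b* ranged from 9.23 to 13.8 CPM in males, with a median of 11.6, and from 8.51 to 12.0 CPM in females, with a median of 10.4. Male 1 and Male 2 lay above all 12 females and the other 4 males lay among them. Its log2 fold change in males was 0.18 (SE 0.0820, 95% interval 0.0084 to 0.35), with an adjusted p = 0.496 in edgeR (unadjusted p = 0.0406), and it was 0.25 in the first library series and 0.09 in the second. *Tlx3* had a median of 3.98 CPM in males (3.67 to 5.52) and 3.75 CPM in females (3.15 to 7.74). Its log2 fold change was 0.02 (95% interval -0.33 to 0.37), or 0.13 without F1/proestrus 5 and -0.08 without Male 5. *Prrxl1* lay between 30.6 and 41.9 CPM in males and between 27.3 and 55.8 CPM in females, with a log2 fold change of 0.03 (95% interval -0.23 to 0.29), or 0.11 without F1/proestrus 5. *Ebf2* was the steadiest of the 4, at 34.1 ± 2.99 CPM in males (SD, n = 6) and 32.7 ± 2.42 in females (SD, n = 12), and its interval of -0.05 to 0.18 on the log2 scale was the narrowest of all members.

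In the inhibitory lineage, *Gbx1* spread more in males (4.80 to 10.5 CPM, median 7.76) than in females (5.73 to 8.15 CPM, median 6.73). Male 5 and Male 6 lay above every female, and Male 4 below every female. Its log2 fold change was 0.21 (95% interval -0.04 to 0.45, adjusted p = 0.563 in edgeR), and 0.10 without Male 5. *Pax2* averaged 2.38 ± 0.349 CPM in males (SD, n = 6) and 2.30 ± 0.428 CPM in females (SD, n = 12), with an interval of -0.20 to 0.31 for the log2 fold change. *Lhx1* averaged 6.998 ± 0.429 and 6.63 ± 0.753 CPM, with an interval of -0.08 to 0.24.

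Among the factors of both lineages, *Lbx1* had the highest estimate. It ranged from 7.78 to 12.0 CPM in males, with a median of 9.08, and from 5.57 to 11.7 CPM in females, with a median of 7.63. The highest female, F1/proestrus 6, lay above all males but Male 5. The log2 fold change was 0.28 (SE 0.133, 95% interval 0.0023 to 0.55), or 1.21-fold, with an adjusted p = 0.513 in edgeR (unadjusted p = 0.0483). It was 0.37 in the first series and 0.20 in the second, and with the series as a covariate the adjusted p was 0.155, the lowest that any member reached in any fit. *Maf* had a log2 fold change of 0.16 (95% interval -0.09 to 0.41), which was 0.04 without Male 5, the sample with the highest *Maf* at 13.6 CPM. *Rorb* was at 43.4 ± 5.68 CPM in males (SD, n = 6) and 45.8 ± 4.12 CPM in females (SD, n = 12), with a log2 fold change of -0.07 (95% interval -0.21 to 0.07), which was -0.029 without Male 4 and -0.13 without Male 1.

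**Figure D2:**
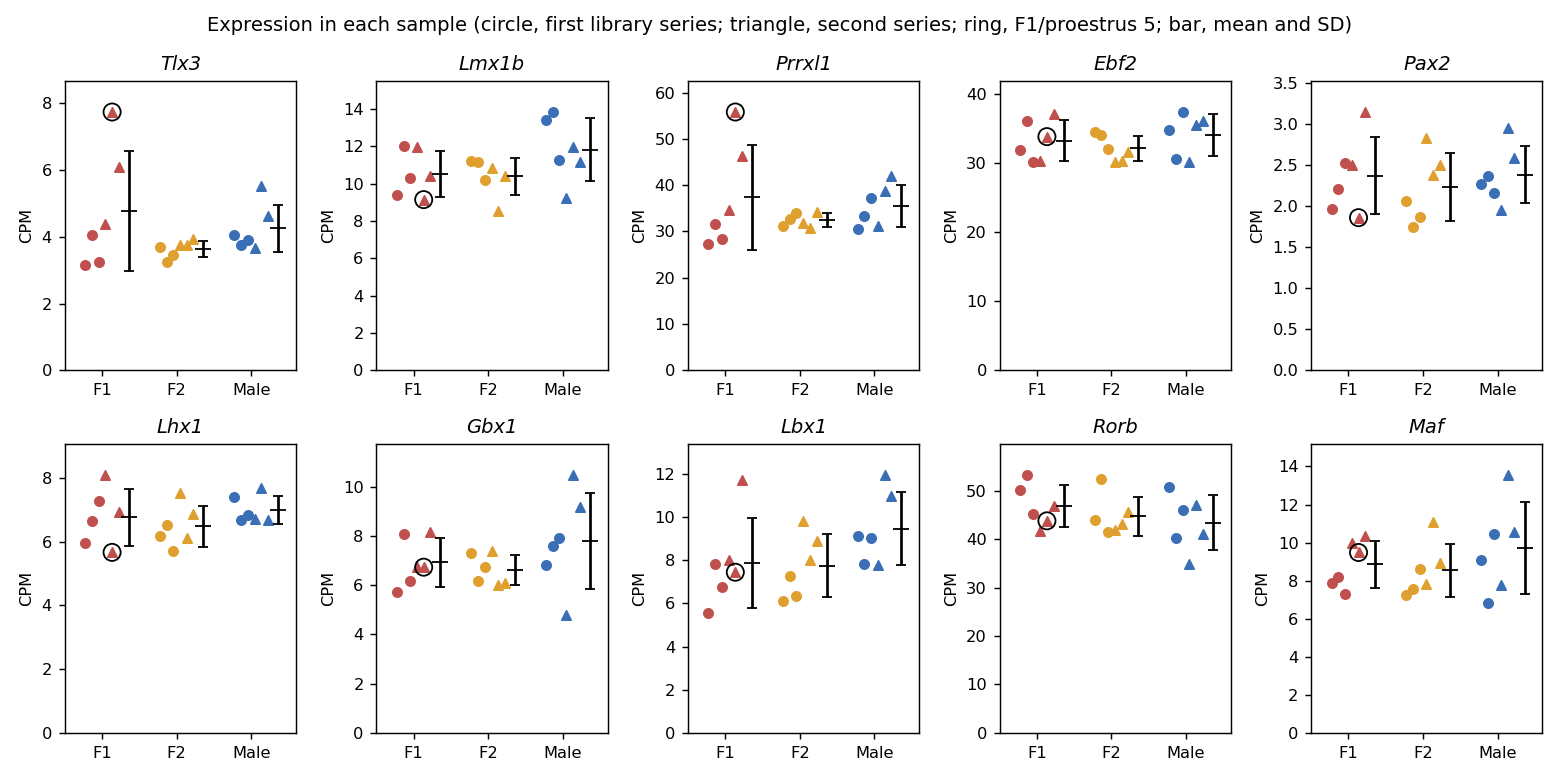
CPM of each factor in every sample by group (F1, F1/proestrus; F2, F2/metestrus), with circles for the first and triangles for the second library series, a ring around F1/proestrus 5, and the group mean and SD beside the points. The groups overlap in all 10 panels, and F1/proestrus 5 is highest for *Tlx3* (7.74 CPM) and *Prrxl1* (55.8 CPM).

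Between the female groups, 0 of the 10 factors passed the same test, in which 0% of the 24042 genes tested were called (596 genes at an unadjusted p under 0.05, against 2 genes called by DESeq2, neither a member). All 10 estimates were lower in F2/metestrus, although 8 of them lay between -0.09 and -0.02 on the log2 scale. The exceptions were *Tlx3* and *Prrxl1*, both of which are also transcribed in sensory ganglion neurons. *Tlx3* ranged from 3.15 to 7.74 CPM in F1/proestrus, with a median of 4.22, and from 3.24 to 3.93 CPM in F2/metestrus, with a median of 3.73. The F1/proestrus values thus enclosed those of F2/metestrus, with F1/proestrus 5 (7.74 CPM) and F1/proestrus 6 (6.10 CPM) well above the rest. The log2 fold change was -0.40 (SE 0.193, 95% interval -0.81 to 0.012, adjusted p = 1 in edgeR, unadjusted p = 0.0561). Without F1/proestrus 5 it was -0.21. It was -0.01 in the first library series and -0.68 in the second, which holds both high samples. *Prrxl1* ranged from 27.3 to 55.8 CPM in F1/proestrus and from 30.7 to 34.2 CPM in F2/metestrus, again with F1/proestrus 5 (55.8 CPM) and F1/proestrus 6 (46.4 CPM) highest. Its log2 fold change was -0.21 (95% interval -0.53 to 0.11), or -0.06 without F1/proestrus 5, and it changed sign between the first series (0.16) and the second (-0.50). F1/proestrus 6 had 0.152 CPM of *Scn10a* and 0.369 CPM of *Avil*, within the range of the samples other than F1/proestrus 5. Why *Tlx3* and *Prrxl1* were high in either sample was not tested.

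The intervals of the other 8 factors all included 0. For *Ebf2* the interval was -0.19 to 0.09, for *Rorb* -0.22 to 0.07, for *Lmx1b* -0.22 to 0.17, for *Gbx1* -0.29 to 0.15 and for *Lhx1* -0.28 to 0.15 on the log2 scale. *Maf* (-0.30 to 0.19), *Lbx1* (-0.38 to 0.32) and *Pax2* (-0.42 to 0.24) had wider intervals. A p that misses the threshold does not show that the stages were equal.

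**Figure D3:**
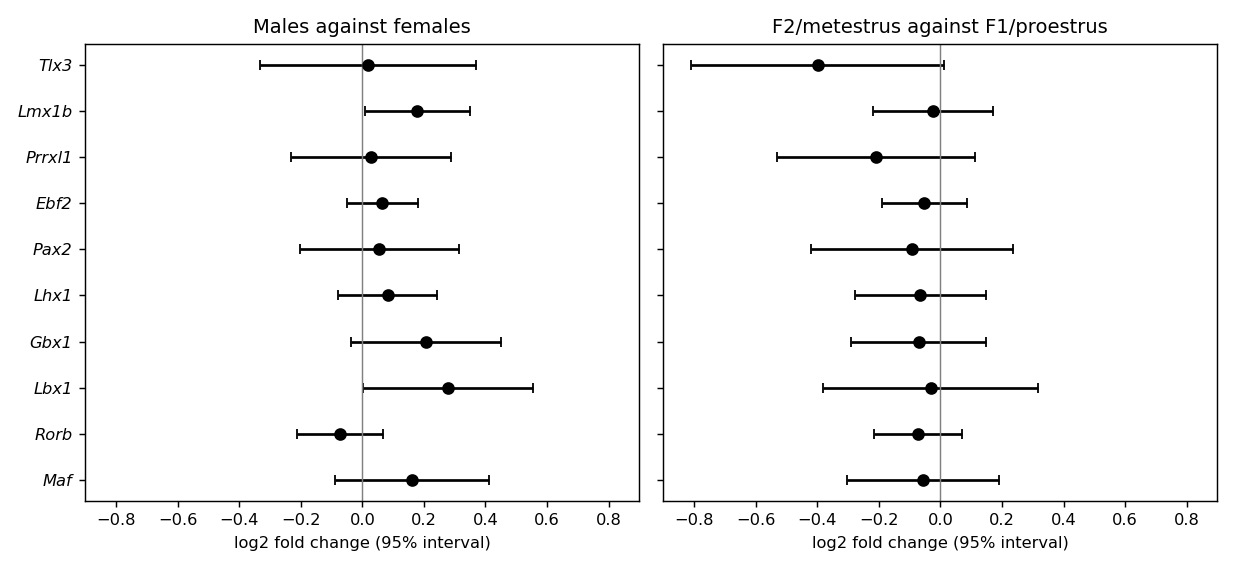
Log2 fold change of each factor, with its 95% interval from edgeR, for males against females (left) and F2/metestrus against F1/proestrus (right). In the sex comparison the intervals of *Lmx1b* and *Lbx1* lie just above 0, and in the stage comparison that of *Tlx3* reaches from -0.81 to 0.012.

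More members passed between the library series than between sexes or stages. In a fit with the 3 groups and the series, 4 of 10 members were higher in the second series at an FDR of 5%, where 26.9% of 25180 genes were called. The log2 fold change was 0.41 for *Tlx3* (adjusted p = 0.0120 in edgeR), 0.39 for *Lbx1* (adjusted p = 0.00557), 0.31 for *Maf* (adjusted p = 0.0198) and 0.28 for *Prrxl1* (adjusted p = 0.0444). *Pax2* had 0.26 (adjusted p = 0.0699), and *Lmx1b*, *Rorb* and *Ebf2* had negative estimates that did not pass. Without F1/proestrus 5, *Prrxl1* no longer passed (0.20, adjusted p = 0.0704) and *Pax2* did (0.32, adjusted p = 0.0156). Each series holds 3 samples of every group, so the series was balanced over sex and stage.

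Several factors varied together from sample to sample. Over the 18 samples, Pearson's r of log2 CPM was above 0 for 36 of the 45 pairs, and 6 pairs passed a permutation test after Benjamini-Hochberg adjustment over the 45, all with r above 0. The share of pairs of other genes that would pass was not computed, so these counts have no background. The permutations shuffled all 18 samples without regard to group or library series. A shift between the series that 2 members share can thus add to r, and 26.9% of genes were called between the series. The strongest pair was *Tlx3* with *Prrxl1* (r = 0.91, Spearman's rho = 0.74, permutation p adjusted = 0.0009). Within the library series r was 0.48 (first) and 0.96 (second). It was 0.74 without the 2 samples farthest from the median of *Tlx3*, and 0.84 without F1/proestrus 5 (permutation p adjusted = 0.00292). The inhibitory-lineage gene *Pax2* correlated with *Lbx1* (r = 0.76, rho = 0.74, permutation p adjusted = 0.0038; 0.38 and 0.86 within the series; 0.73 without the 2 farthest samples). *Pax2* also correlated with *Lhx1* (r = 0.68, rho = 0.73, permutation p adjusted = 0.0237), with 0.71 and 0.64 within the series and 0.77 without the 2 farthest samples.

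A further 3 pairs passed. Like *Pax2* with *Lbx1*, each of them linked a factor of both lineages or crossed lineages. *Lbx1* and *Maf* had r = 0.67 (rho = 0.66, permutation p adjusted = 0.0237), with 0.53 and 0.49 within the series and 0.50 without the 2 farthest samples. Both of these members were higher in the second series, and their r centred within series was 0.50. *Ebf2*, of the excitatory lineage, and *Gbx1*, of the inhibitory lineage, had r = 0.65 (rho = 0.70, permutation p adjusted = 0.0237), with 0.55 and 0.76 within the series and 0.63 without the 2 farthest samples. *Gbx1* and *Lbx1* had r = 0.64 (rho = 0.60, permutation p adjusted = 0.0364), with 0.59 and 0.84 within the series and 0.62 without the 2 farthest samples. The median r was 0.36 over the 6 pairs within the excitatory lineage, 0.55 over the 3 pairs within the inhibitory lineage and 0.28 over the 12 pairs between them. These medians share genes and samples and were not tested against each other.

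The library with ganglion markers weighed heavily on this pattern. Without F1/proestrus 5, 16 pairs passed in place of 6. *Tlx3* then correlated with *Lbx1* at r = 0.84 (0.54 with it), with *Pax2* at 0.76 (0.31 with it), with *Maf* at 0.71 and with *Gbx1* at 0.69, and *Prrxl1* with *Lbx1* at 0.77 (0.49 with it). In F1/proestrus 5 itself *Tlx3* and *Prrxl1* were the highest of all samples. *Pax2* (1.86 CPM), *Lhx1* (5.67 CPM) and *Lmx1b* (9.15 CPM), the last of the excitatory lineage, were the lowest of F1/proestrus. *Gbx1* (6.74 CPM) and *Ebf2* (33.8 CPM) lay within the range of the other F1/proestrus samples, so the members did not split by lineage there. Male 5 had the opposite weight: without it 2 pairs passed, and without Male 6, 3. Male 5 was highest of all samples for *Lbx1* (12.0 CPM), *Maf* (13.6 CPM) and *Gbx1* (10.5 CPM).

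**Figure D4:**
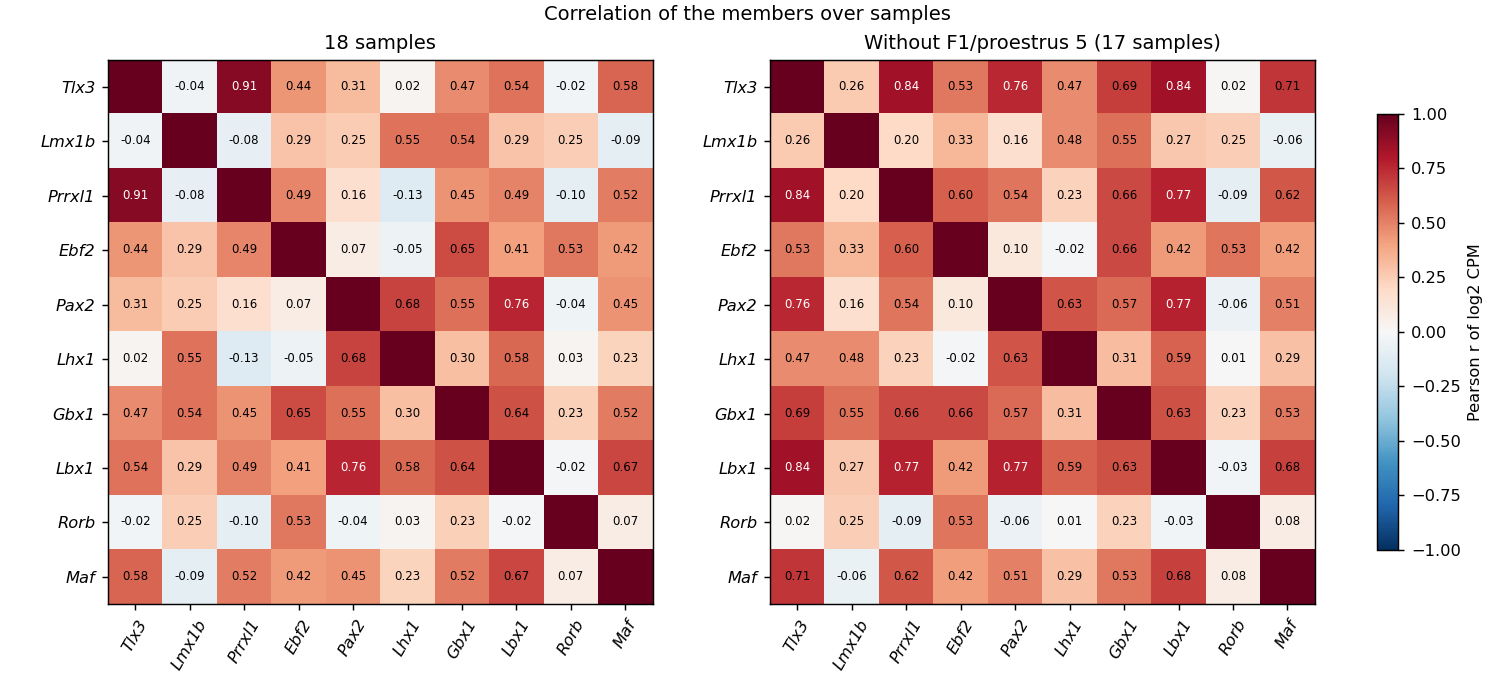
Pearson's r of log2 CPM for each pair of factors, over the 18 samples (left) and without F1/proestrus 5 (right), from blue (-1) to red (1). *Tlx3* with *Lbx1* goes from 0.54 to 0.84 and *Tlx3* with *Pax2* from 0.31 to 0.76, while *Pax2* with *Lbx1* stays near 0.76.

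Motor neuron markers also varied between samples. Male 5 had the lowest *Chat*, the acetylcholine-synthesizing enzyme of motor neurons (4.14 CPM, against 7.07 to 28.0 in the other samples). The summed CPM of 6 motor neuron markers ranged from 29.2 to 166 in males, from 41.4 to 186 in F1/proestrus and from 134 to 172 in F2/metestrus. A score of these markers, the mean of their centred log2 CPM, was negatively correlated with each of the 10 factors. It was lowest in Male 5 (-2.06), F1/proestrus 2 (-1.50), F1/proestrus 6 (-0.88) and Male 6 (-0.82), and F1/proestrus 5 (0.46) lay near the F2/metestrus median (0.50). This relation was computed after the values had been seen, and its permutations also ignored group and series. The share of all genes with a negative correlation to the score was not computed. Several of the 10 factors correlate with each other, so they are not 10 separate observations. *Gbx1* alone passed adjustment over the 10 (r = -0.71, permutation p adjusted = 0.00730, rho = -0.44, Spearman permutation p adjusted = 0.163). Its r was -0.53 and -0.80 within the series, and -0.52 without the 2 samples farthest from the median. *Lbx1* had r = -0.59 (permutation p adjusted = 0.0507), with -0.37 and -0.78 within the series. Without Male 5, 0 of the 10 passed, and without Male 2, 4 did. With this score as a covariate, the log2 fold change in males was 0.15 for *Lbx1* (adjusted p = 0.885 in edgeR), 0.12 for *Lmx1b* (0.871) and 0.05 for *Gbx1* (0.944).

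**Figure D5:**
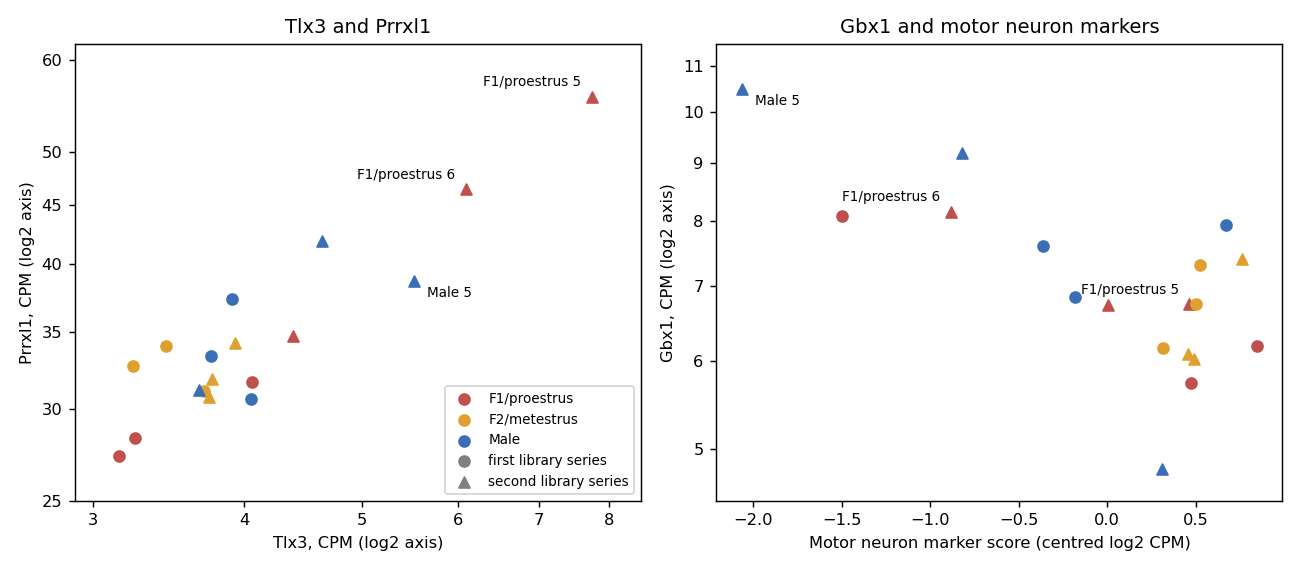
Left, CPM of *Prrxl1* against CPM of *Tlx3* (log2 axes), and right, CPM of *Gbx1* (log2 axis) against the motor neuron marker score, 1 point for each of the 18 samples. F1/proestrus 5 and F1/proestrus 6 lie at the upper end of the left plot (r = 0.91), and Male 5 at the upper left end of the right plot (r = -0.71).

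Other factors of the dorsal horn did not pass the threshold between sexes either. Of 10 tested dorsal excitatory-lineage factors besides the members, 7 had higher and 3 lower estimates in males, with 0 called and a median log2 fold change of 0.11, against -0.0013 over all genes. The smallest p was that of *Phox2a* (0.59, SE 0.213, adjusted p = 0.365 in edgeR). *Tlx1*, the paralog of *Tlx3*, had 0 counts in all 18 samples, which at this depth allows up to 0.0399 CPM. Of 8 tested inhibitory-lineage factors, 5 were higher and 3 lower with 0 called (median 0.05), led by *Tfap2b* (0.21, adjusted p = 0.515), and *Gsx2* and *Ptf1a*, used by progenitors, had too few counts to be tested. Of 15 factors of dorsal horn laminae, 4 were higher and 11 lower with 0 called (median -0.02). The 6 transmitter identity genes held 1 higher and 5 lower estimates with 0 called (median -0.06), with *Slc6a5* at -0.21 (adjusted p = 0.577). Between the female groups these 4 lists also had 0 calls, with medians of -0.11, -0.02, 0.03 and -0.02.

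The ventral spinal cord factors, listed for neurons outside the dorsal horn, mostly had estimates of the opposite sign to those of the members. Several members correlate with each other, so these counts of signs are not separate observations, and the contrast was not tested. Whether each is confined to such neurons was not tested, and the list shares a gene with the motor neuron markers. In males 14 of 16 had lower estimates, with 0 called and a median log2 fold change of -0.31, and *Foxp2* had the smallest p (-0.61, SE 0.159, adjusted p = 0.158 in edgeR). The 6 motor neuron markers were all lower in males with 0 called (median -0.49), with *Slc5a7*, the choline transporter, at -0.62 (adjusted p = 0.538). The 5 Schwann cell markers were all higher in males (median 0.67), and *Ncmap* was called (0.67, adjusted p = 0.00654). The 7 tested sensory ganglion neuron markers had lower estimates in males with 0 called, in a comparison that includes F1/proestrus 5. Of 8 microglia and macrophage markers, 7 were higher with 0 called (median 0.09, *Csf1r* 0.20 with an adjusted p of 0.0548), while *Cx3cr1* lay between 24.1 and 37.0 CPM over all samples. Astrocyte, oligodendrocyte, endothelial, fibroblast and red blood cell markers had 0 calls, with medians between -0.14 and 0.21. Between the female groups, the 10 members had lower estimates in F2/metestrus, most of them small. There, 12 of 16 ventral factors (median 0.11) and all 6 motor neuron markers (median 0.40) had higher estimates. So had all 8 microglia and macrophage markers (median 0.06), all 4 astrocyte markers (median 0.01) and all 4 oligodendrocyte markers (median 0.11), while the 6 tested sensory ganglion neuron markers were lower, and 0 genes of any list were called. The part of these cell types in the levels of the members was not tested beyond the covariate fits.

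Outside the chosen factors, the genes that followed each member most closely were sought among the 17763 genes with a mean of at least 1 CPM, by Pearson's r of log2 CPM centred within group and library series over the 18 samples. *Prrxl1* was followed by *Rtn4rl1* (r = 0.95) and *Eepd1* (0.92), and *Tlx3* by *Kcnip2* (0.93) and *Mturn* (0.90). *Pax2* was followed by *Sergef* (0.93) and *Thra* (0.93), *Lhx1* by *Gm16973* (0.91) and *Rbmxl1* (0.89), and *Gbx1* by *Ei24* (0.91) and *Lrrc75a* (0.90). *Lbx1* was followed by *Noct* (0.93) and *Hpca* (0.90), *Maf* by *Nup35* (0.93) and *Gm9836* (0.90), and *Rorb* by *Aaed1* (0.93) and *Aebp2* (0.93). *Lmx1b* was followed by *Mef2d* and *Pou6f1* (0.87 for both), and *Ebf2* by *1810030O07Rik* (0.93) and *Qrfpr* (0.90). These coefficients are the highest of 17763 and serve as a description. Without F1/proestrus 5 the leading gene was another one for *Tlx3* (*Necab2*, 0.95, against 0.24 with that sample), *Pax2* (*Thra*, 0.94), *Gbx1* (*Tac2*, 0.93, against 0.82) and *Rorb* (*Gm28221*, 0.96, against 0.89).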

How the data were processed

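The 18 samples form 3 groups of 6, namely males, F1/proestrus and F2/metestrus. The authors deposited raw counts per Ensembl gene, made by unique mapping to mm10 with Subread (version 2.0.3 per the labels, another version in the methods) and counting on exons with featureCounts. For library preparation the labels give SMART-Seq amplification with Nextera XT and the methods TruSeq. The deposited table of 1 comparison made with DESeq2 (fold changes and p-values) was used for symbols only. The labels do not say whether each sample is 1 animal, so p-values measure the spread between samples.

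Counts were filtered with filterByExpr (minimum count of 10), normalized by TMM and tested with edgeR 4.0.16 in R 4.3.3, males against 12 females and F2/metestrus against F1/proestrus, with Benjamini-Hochberg adjustment over all genes at an FDR of 5%. DESeq2 1.42.0 and limma 3.58.1 (voom) were alternatives. On simulated counts with 200 genes changed, edgeR recovered 65.7% of the tested 1.5-fold changes between sexes and 54.3% between the female groups. For 2-fold changes these were 80.2% and 79.6%. False calls stood at 9 beside 130 recovered genes (sexes) and 7 beside 108 (female groups) for 1.5-fold. At 2-fold they stood at 12 beside 158 and 2 beside 156. Smaller changes can thus be missed. Standard errors were taken from the log2 fold change and its F statistic, and 95% intervals use them. Correlations used log2 CPM (prior count of 2) with 100000 permutations, two-sided. GENCODE vM21 placed 55480 of 55573 genes. Intervals and floors cover counting error or sample spread only. Members, lists, library series and alternatives were chosen with earlier results of these data known; the test between series and the correlations with the motor neuron score were added after the values were seen. Genes named besides the members were those called in a list or, with none called, that with the smallest p between the sexes, defining markers, and the 2 genes most like each member; *Tlx1*, *Gsx2*, *Ptf1a*, *Gm10860*, *Gm15655*, *Necab2*, *Tac2* and *Gm28221* were named after their values were seen. The values of 2 genes that this rule names are not reported here.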

Additional observations from a re-analysis of the deposited data

Results flagged for a closer look

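*Lmx1b* in F2/metestrus 5 was the lowest of its group, at 8.51 CPM against 10.2 CPM in the nearest sample. The gap divided by the range of the group was 0.6255, just past the 95% critical value of Dixon's test for 6 samples. It was the 1 sample past that value in the 30 sets of 6 (10 factors in 3 groups), and chance alone passes it in about 1 of 20 sets.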

How the results depend on the processing

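The count of called members was 0 in both comparisons under every alternative run: DESeq2, voom with sample weights, size factors, no filter, at least 10 counts in every sample, the replicate block, the library series as a covariate or each series alone, 3 groups in 1 fit, males against either female group, 2 marker scores as covariates, and each sample left out. Over all genes these fits called 13 to 166 genes between sexes (49 in the reported fit, 166 with DESeq2, 133 with the series as a covariate, 112 with the replicate block, 13 with the second series alone or against F1/proestrus alone) and 0 to 2 between the female groups. The replicate numbers do not pair the samples: deviations of same-numbered samples correlated between -0.105 and 0.227, 9 of 18 such pairs lay at or under 0.1, and 7 of 18 samples correlated best with their own number. With the replicate block, 0 members and 0 genes were called between the female groups.

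Of 260 member estimates under these settings 240 kept their direction, as did 280 of 300 with a sample left out, and 0 passed the threshold. Between sexes, *Tlx3* turned to -0.10 in the second series, -0.17 against F1/proestrus alone and -0.12 with the motor neuron score, *Prrxl1* to -0.056, -0.080 and -0.040, and *Pax2* to -0.013 in the second series and -0.048 with the score. Between the female groups, the first series alone gave 0.036 for *Lmx1b*, 0.16 for *Prrxl1*, 0.032 for *Ebf2*, 0.011 for *Gbx1* and 0.0017 for *Maf*, and the second 0.036 for *Pax2*. The motor neuron score gave 0.048 for *Lmx1b*, 0.023 for *Ebf2*, 0.052 for *Gbx1* and 0.12 for *Lbx1*, and voom 0.0016 for *Lmx1b* and 0.0028 for *Ebf2*. The cause was not tested. With each sample left out, the sex estimate ranged from -0.077 to 0.13 for *Tlx3*, -0.035 to 0.11 for *Prrxl1* and -0.021 to 0.10 for *Pax2*, and the stage estimate from -0.061 to 0.029 for *Lmx1b*, -0.18 to 0.0095 for *Pax2* and -0.12 to 0.12 for *Lbx1*.

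With the longest transcript in place of all exons, the level moved to 11.8 CPM per kilobase for *Prrxl1*, 6.37 for *Ebf2*, 0.534 for *Pax2*, 4.84 for *Rorb* and 1.42 for *Maf*, by construction. The 6 correlated pairs became 12 centred within series and 11 by Spearman's rho, and 2 (without Male 5) to 16 (without F1/proestrus 5) with a sample left out. The 1 member correlated with the motor neuron score became 4 centred within series, 0 centred within group, 0 by Spearman's rho, and 0 (without Male 5) to 4 (without Male 2) with a sample left out. It was also 3 without F1/proestrus 2, F1/proestrus 5 or Male 3, and 2 without F2/metestrus 4 or F2/metestrus 6. The lowest count of a member in any sample was 147 (*Pax2*), so relative counting error was largest for that gene.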
